A study of Mus musculus with 11 samples.

Results

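The cytotoxic, NK and CD8 genes were examined as a set of 10 genes out of the 35814 gene symbols in the count table of renal CD4+ T cells after ischemia–reperfusion injury (IRI). They were chosen by name for their known functions and comprised the granzymes *Gzma*, *Gzmb* and *Gzmk*, the pore-forming protein gene *Prf1*, the granule protein gene *Nkg7*, the receptor genes *Klrd1* and *Klrk1*, both CD8 chains (*Cd8a* and *Cd8b1*) and the transcription factor gene *Eomes*. All 10 had a row in the table, and each was read across 11 libraries, both as a level and relative to the summed counts of the T cell receptor constant regions *Trac*, *Trbc1* and *Trbc2*. The libraries came from 3 CD4cre control mice, 5 CD4IKK1Δ mice and 3 CD4NIKΔ mice by their labels, each mouse giving 1 library. All mice were young adult males on a C57BL/6 background, had both renal pedicles clamped and then released, and were analysed on day 2. All 3 groups carry a Cre recombinase driven by the CD4 promoter, which is already active in thymocytes that express both CD4 and CD8. The CD4IKK1Δ mice carry in addition a floxed *Chuk* gene, which encodes the kinase IKK1, and the CD4NIKΔ mice a floxed *Map3k14* gene, which encodes the NFκB-inducing kinase NIK. The cells were enriched from the kidney with magnetic beads and purified by FACS sorting before their RNA was amplified. The comparisons address how the loss of a kinase of the NFκB pathway changes the transcripts of renal CD4+ T cells after IRI.

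Cytotoxic lymphocytes carry granules filled with granzymes, which are serine proteases, and with perforin, which forms pores in the target cell membrane through which granzymes enter. CD8+ T cells and NK cells are the main users of this system, but CD4+ T cells of the Th1 type can also express parts of it, and CD4+ cytotoxic T cells are known in inflamed tissue. CD8α and CD8β form the co-receptor of T cells restricted by MHC class I, and a sort for CD4+ T cells is meant to remove these cells. *Klrd1* encodes CD94, the partner of the NKG2 receptors, and *Klrk1* encodes NKG2D, a receptor for stress-induced ligands on injured cells. *Eomes* encodes a T-box factor that drives the cytotoxic program of NK and CD8+ T cells together with the related T-bet.

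The genes lie in part side by side in the mouse genome (GRCm39): *Gzma* (chromosome 13, 113230355 to 113237524) next to *Gzmk* (113308142 to 113362442), *Klrd1* (chromosome 6, 129568677 to 129575738) next to *Klrk1* (129587286 to 129600827), and *Cd8b1* (chromosome 6, 71299772 to 71315087) next to *Cd8a* (71350411 to 71356157). *Gzmb* lies on chromosome 14 from 56496295 to 56499717, *Prf1* on chromosome 10 from 61133546 to 61140461, *Nkg7* on chromosome 7 from 43086497 to 43087678, and *Eomes* on chromosome 9 from 118307280 to 118315200. RefSeq promoter sequences on GRCm38.p6, the 250 bases before the start of each gene, were matched for 8 of the 10 genes, not for *Klrd1* and *Cd8b1*. They were searched on both strands for GTGTGA, the core letters bound by T-box factors such as EOMES and T-bet, and for TGTGGT, the core letters bound by RUNX factors. The T-box letters were found in 3 of the 8 (*Gzmb*, *Gzmk* and *Nkg7*) and the RUNX letters in 5 of the 8 (*Gzma*, *Gzmb*, *Prf1*, *Nkg7* and *Klrk1*), while 12.3% and 14.0% of 32851 RefSeq promoters of the same length held them. The promoters of *Cd8a* and *Eomes* held neither. The following 3 promoters are shown because they hold the T-box letters, and because *Gzmb* and *Nkg7* were the members with the highest levels. Matches to either motif are in capitals, and each sequence is written on the strand of its gene. The *Gzmb* promoter is chr14:56262335-56262584 (minus strand), that of *Nkg7* is chr7:43436888-43437137 (plus strand), and that of *Gzmk* is chr13:113180966-113181215 (minus strand).
Gzmb: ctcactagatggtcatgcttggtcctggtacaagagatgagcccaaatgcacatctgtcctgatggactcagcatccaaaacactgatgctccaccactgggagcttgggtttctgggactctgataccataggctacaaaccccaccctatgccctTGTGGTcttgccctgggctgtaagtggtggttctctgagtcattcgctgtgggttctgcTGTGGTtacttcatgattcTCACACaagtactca
Nkg7: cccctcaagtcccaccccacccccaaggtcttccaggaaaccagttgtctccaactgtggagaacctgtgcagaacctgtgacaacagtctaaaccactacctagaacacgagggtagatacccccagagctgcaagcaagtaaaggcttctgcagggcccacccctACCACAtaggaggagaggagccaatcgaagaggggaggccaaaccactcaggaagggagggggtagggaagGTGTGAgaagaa
Gzmk: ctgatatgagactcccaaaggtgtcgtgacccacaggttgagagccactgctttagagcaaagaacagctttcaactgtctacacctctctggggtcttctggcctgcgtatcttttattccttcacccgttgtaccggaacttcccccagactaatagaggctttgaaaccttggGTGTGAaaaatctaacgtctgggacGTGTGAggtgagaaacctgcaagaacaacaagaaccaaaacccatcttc
A match only describes these letters, and binding of a factor was not measured. In the *Gzmb* promoter a T-box match and 2 RUNX matches were present, in the *Nkg7* promoter 1 of each, and in the *Gzmk* promoter 2 T-box matches and no RUNX match.

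The libraries held between 15751632 and 25737046 estimated counts, so that a floor of 3 counts stood at 0.117 to 0.190 CPM, a unit that scales counts to library size, and a count of 0 was read as any level up to that floor. This floor reflects counting error alone, as reads of amplified cDNA were not tagged by molecule and are not independent. Transcripts of the targeted genes did not follow the labels: *Chuk* was at 22.0 ± 9.69 CPM (SD, n = 3) in CD4cre libraries and 20.4 ± 4.52 CPM (SD, n = 5) in libraries labelled CD4IKK1Δ (log2 fold change −0.11, FDR 0.921), and *Map3k14* was at 17.9 ± 2.77 CPM (SD, n = 3) in CD4cre libraries and 22.5 ± 9.06 CPM (SD, n = 3) in libraries labelled CD4NIKΔ (log2 fold change 0.30, FDR 0.575 from edgeR's quasi-likelihood test). In libraries labelled CD4IKK1Δ *Map3k14* was at 5.97 ± 2.81 CPM (SD, n = 5) and at most 9.24 CPM, below every CD4cre library (14.7 CPM or more) and every CD4NIKΔ library (12.8 CPM or more). This difference passed against CD4NIKΔ (log2 fold change −1.91, FDR 0.00418) but not against CD4cre (−1.58, FDR 0.148, edgeR's quasi-likelihood test). Counts per gene do not resolve the floxed exons, and CD4IKK1Δ and CD4NIKΔ libraries are throughout those that carry these labels. The content of T cell and other transcripts differed between the libraries. The 3 constant regions together had between 12558 and 35820 counts in CD4cre libraries, between 60124 and 111648 in libraries labelled CD4NIKΔ, and 41, 868, 11413, 5277 and 5644 in replicates 1 to 5 of those labelled CD4IKK1Δ. *Cd4* was likewise at 51.1 to 78.4 CPM, 316 to 382 CPM and 2.07 to 68.9 CPM, and the summed markers of neurons were at 1230 to 1425 CPM in CD4cre libraries, 422 to 834 CPM in libraries labelled CD4NIKΔ and 1524 to 1798 CPM in libraries labelled CD4IKK1Δ. Erythroid markers summed to 2078 to 2680 CPM in CD4cre and 532 to 1612 CPM in CD4IKK1Δ libraries, kidney tubule markers to 16.2 to 67.0 and 3.10 to 9.49 CPM, and endothelial markers to 15.9 to 21.4 and 8.17 to 12.5 CPM, without overlap for any of these lists. In CD4NIKΔ libraries the endothelial markers summed to 23.2 to 51.4 CPM, above every CD4cre library. Of 3 tested endothelial markers 1 passed as higher against CD4cre (10.4% of all genes tested did), *Pecam1*, which leukocytes also express. Erythroid (1177 to 8183 CPM) and kidney tubule markers (8.99 to 94.1 CPM) overlapped with CD4cre. The part of these transcripts in the results was not tested. Replicates 1 and 2 labelled CD4IKK1Δ therefore hold little T cell RNA, and the counts of called genes, the medians relative to receptor counts and the correlations with *Trac* are given with and without them. In such bulk libraries, fewer cells of a type and less RNA per cell cannot be told apart.

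Transcripts of all 3 granzymes were read in every CD4cre and CD4NIKΔ library. *Gzmb*, the granzyme that activates caspases in target cells, was at 39.4, 51.9 and 12.0 CPM in CD4cre libraries, at 0, 0.419, 18.6, 7.26 and 4.15 CPM in libraries labelled CD4IKK1Δ, and at 332, 162 and 201 CPM in libraries labelled CD4NIKΔ. All 3 CD4NIKΔ libraries lay above every other library, whereas replicate 3 labelled CD4IKK1Δ lay within the CD4cre range. *Gzma*, a tryptase-like granzyme, was at 2.23, 4.28 and 5.81 CPM in CD4cre libraries, at 0, 0.157, 0.226, 1.04 and 0 CPM in libraries labelled CD4IKK1Δ, and at 126, 56.1 and 9.53 CPM in libraries labelled CD4NIKΔ. The 3 groups did not overlap for *Gzma*, but the CD4NIKΔ libraries spread widely, at 63.8 ± 58.5 CPM (SD, n = 3). *Gzmk*, a granzyme common in memory-like T cells, was at 0.692, 4.09 and 5.51 CPM in CD4cre libraries, at 3.10, 1.31, 4.07, 0.248 and 1.71 CPM in libraries labelled CD4IKK1Δ, and at 37.7, 8.11 and 20.6 CPM in libraries labelled CD4NIKΔ. CD4cre and CD4IKK1Δ libraries overlapped for this gene, and replicate 1 labelled CD4IKK1Δ, with 48 *Gzmk* counts and 41 receptor counts, was among the higher of them.

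**Figure D1:**
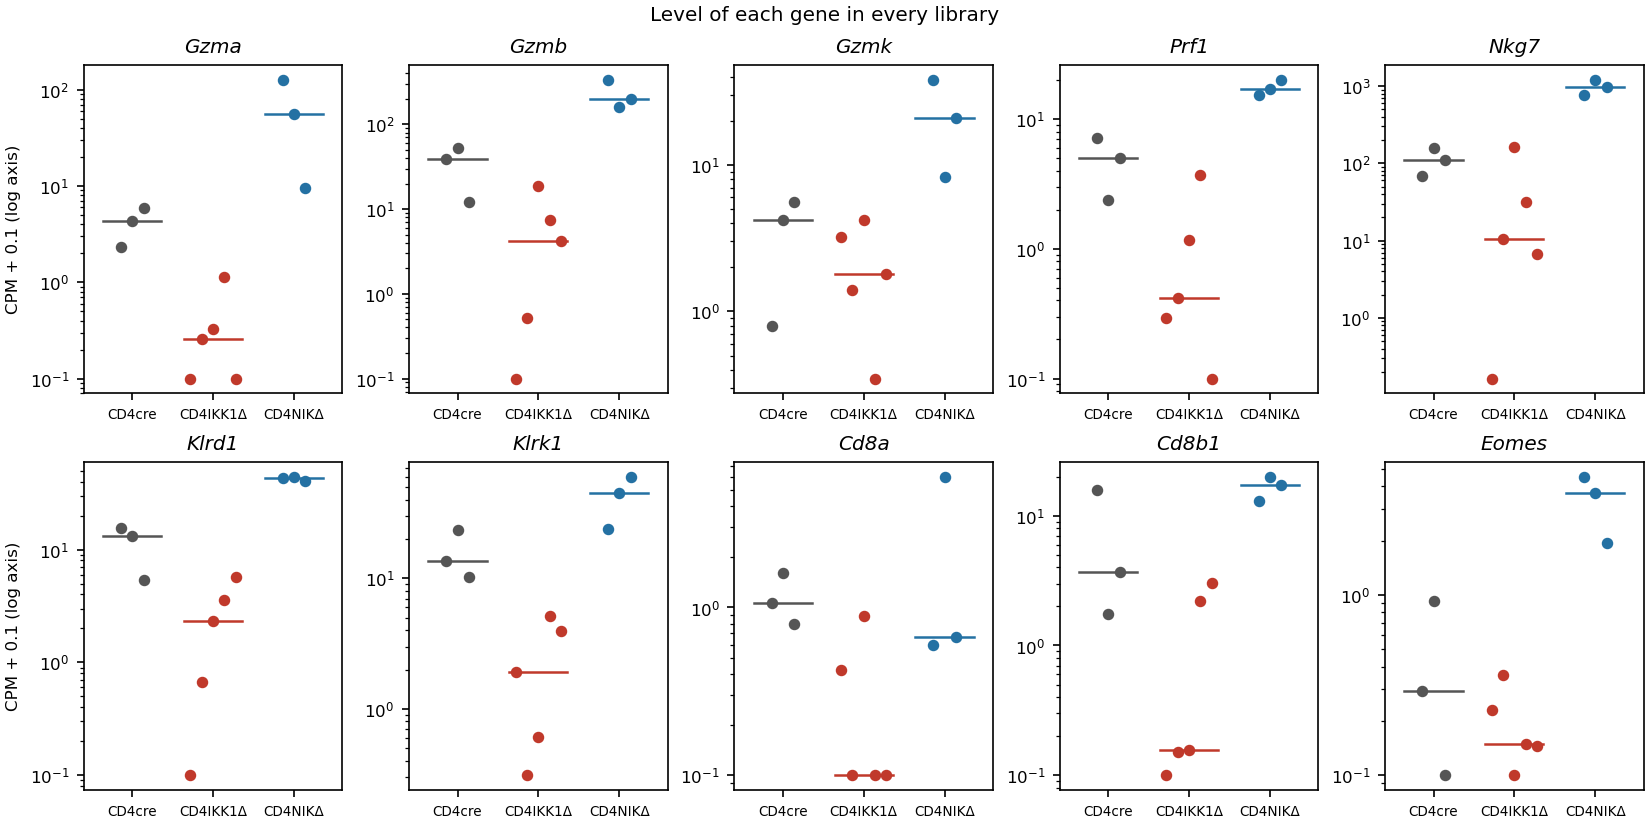
CPM of each gene (plus 0.1, log axis, each panel with its own scale) in every library, with points for the libraries of CD4cre (grey), CD4IKK1Δ (red) and CD4NIKΔ (blue) and a bar at the group median. *Nkg7* reaches 1191 CPM in a CD4NIKΔ library and *Eomes* no more than 4.41 CPM, and the CD4NIKΔ points lie above all others for every gene but *Cd8a* and *Cd8b1*.

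*Prf1*, which encodes perforin, was at 7.07, 2.29 and 4.91 CPM in CD4cre libraries, at 0.194, 0.314, 1.07, 3.63 and 0 CPM in libraries labelled CD4IKK1Δ, and at 15.2, 16.9 and 19.8 CPM in libraries labelled CD4NIKΔ. *Nkg7*, which encodes a membrane protein of the granules needed for their release, was at 69.3, 160 and 109 CPM in CD4cre libraries, at 0.0646, 10.3, 162, 31.3 and 6.71 CPM in libraries labelled CD4IKK1Δ, and at 765, 1191 and 979 CPM in libraries labelled CD4NIKΔ. For both genes the CD4NIKΔ libraries stood above the rest, and 1 CD4IKK1Δ library (replicate 4 for *Prf1*, replicate 3 for *Nkg7*) lay within or just above the CD4cre values. Per kilobase of transcript, *Nkg7* had the highest mean level of the 10 genes in all 3 groups (128 CPM per kb in CD4cre, 47.8 in CD4IKK1Δ and 1109 in CD4NIKΔ libraries) and *Gzmb* the next highest (24.0, 4.24 and 161 CPM per kb). *Prf1* ranked lower, at 1.87, 0.410 and 6.81 CPM per kb. In each of the 3 groups *Cd8a* and *Eomes* held the last 2 ranks, at no more than 0.888 CPM per kb. In between, *Klrd1* and *Gzma* in CD4NIKΔ libraries, and *Klrk1* and *Gzma* in CD4cre libraries, were neighbours in rank whose means (44.2 and 71.7, and 4.66 and 4.62 CPM per kb) lay closer than the spread of *Gzma* between libraries.

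*Klrd1* was the most even of the genes in CD4NIKΔ libraries. It was at 15.5, 13.0 and 5.26 CPM in CD4cre libraries, at 0, 0.576, 2.21, 3.48 and 5.63 CPM in libraries labelled CD4IKK1Δ, and at 43.0, 43.9 and 40.7 CPM in libraries labelled CD4NIKΔ. *Klrk1* was at 13.6, 23.3 and 10.1 CPM in CD4cre libraries, at 1.81, 0.209, 0.509, 5.07 and 3.87 CPM in libraries labelled CD4IKK1Δ, and at 23.7, 44.8 and 59.9 CPM in libraries labelled CD4NIKΔ. The 3 groups did not overlap for *Klrk1*, although the highest CD4cre library (23.3 CPM) and the lowest CD4NIKΔ library (23.7 CPM) nearly met. For *Klrd1* a single CD4IKK1Δ library, replicate 5, lay within the CD4cre range.

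The CD8 chains were low and uneven. *Cd8b1* was at 15.6, 1.65 and 3.61 CPM in CD4cre libraries, at 0, 0.0523, 0.0565, 2.09 and 2.93 CPM in libraries labelled CD4IKK1Δ, and at 13.0, 19.8 and 17.2 CPM in libraries labelled CD4NIKΔ. *Cd8a* had 25, 31 and 14 counts in CD4cre libraries, 5, 0, 14, 0 and 0 counts in libraries labelled CD4IKK1Δ, and 9, 120 and 8 counts in libraries labelled CD4NIKΔ. Replicate 1 of CD4cre stood out for *Cd8b1* and replicate 2 labelled CD4NIKΔ for *Cd8a*, so that the groups overlapped for both chains between CD4cre and CD4NIKΔ. Against *Cd4*, both chains together had 21.1, 6.18 and 7.51 counts per 100 *Cd4* counts in CD4cre libraries and 3.69, 6.73 and 5.61 in libraries labelled CD4NIKΔ. In libraries labelled CD4IKK1Δ these ratios were 15.6, 0.725, 1.23, 11.1 and 12.1, the first of them on 32 *Cd4* counts. *Eomes* was near the floor outside CD4NIKΔ, with 5, 17 and 0 counts in CD4cre libraries, 2, 5, 0, 1 and 1 counts in libraries labelled CD4IKK1Δ, and 80, 73 and 26 counts in libraries labelled CD4NIKΔ.

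NK cell markers differed in how far they followed the set. *Ncr1*, which encodes the NK receptor NKp46, had 0 counts in 9 of the 11 libraries and 18 and 17 counts in replicates 2 and 3 labelled CD4NIKΔ, and *Klra8* had 0 counts in all 11. *Klrb1c* (NK1.1), which NKT cells also express, was read in all groups, at 3.11 to 15.4 CPM in CD4cre, 0 to 4.77 CPM in CD4IKK1Δ and 8.06 to 54.1 CPM in CD4NIKΔ libraries. *Klre1*, another NK receptor gene, was at 0.501 to 6.28 CPM in CD4cre, 0.323 to 1.44 CPM in CD4IKK1Δ and 6.62 to 30.6 CPM in CD4NIKΔ libraries, the last without overlap with the others. *Klri2* overlapped between all groups, at 0 to 3.15 CPM in CD4cre, 0 to 2.83 CPM in CD4IKK1Δ and 1.67 to 8.17 CPM in CD4NIKΔ libraries. *Klra4* had at most 8 counts in a CD4cre, 13 in a CD4IKK1Δ and 1 in a CD4NIKΔ library, and *Itga2* at most 5, 8 and 12 counts in the same order. The 3 NK markers that could be tested had positive fitted differences in CD4NIKΔ against CD4cre, none of them passing (10.4% of all genes tested passed as higher). In CD4IKK1Δ libraries all 3 were negative, with none passing against CD4cre and 2 against CD4NIKΔ (0.0% and 18.5% of all genes tested passed as lower). Without replicates 1 and 2 labelled CD4IKK1Δ none passed against CD4cre (0.239% of all genes). The same 2, *Klrb1c* and *Klre1*, then passed against CD4NIKΔ (17.1% of all genes). The 7 NK markers summed to 3.61 to 23.3 CPM, 1.16 to 6.94 CPM and 23 to 88.6 CPM in the same order of groups, with between 1 and 5 of the 7 at 0 in a library. Markers of γδ T cells, most of which lack CD4 and would be removed by the sort, differed likewise in sum, with 5 markers at 13.2 to 57.6 CPM in CD4cre, 0 to 4.96 CPM in CD4IKK1Δ and 59.2 to 283 CPM in CD4NIKΔ libraries. *Trdc*, the δ chain constant region, had 93, 4 and 4 counts in CD4cre libraries, no more than 1 count in any library labelled CD4IKK1Δ, and 95, 446 and 155 counts in libraries labelled CD4NIKΔ. *Sox13* did not follow this order, at no more than 1.36 CPM in CD4cre, 2.03 CPM in CD4IKK1Δ and 0.565 CPM in CD4NIKΔ libraries. The 9 CD4 T cell markers summed to 430 to 811 CPM, 7.04 to 364 CPM and 2340 to 3784 CPM. The part of these other cell types in the levels of the set was not tested.

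**Figure D2:**
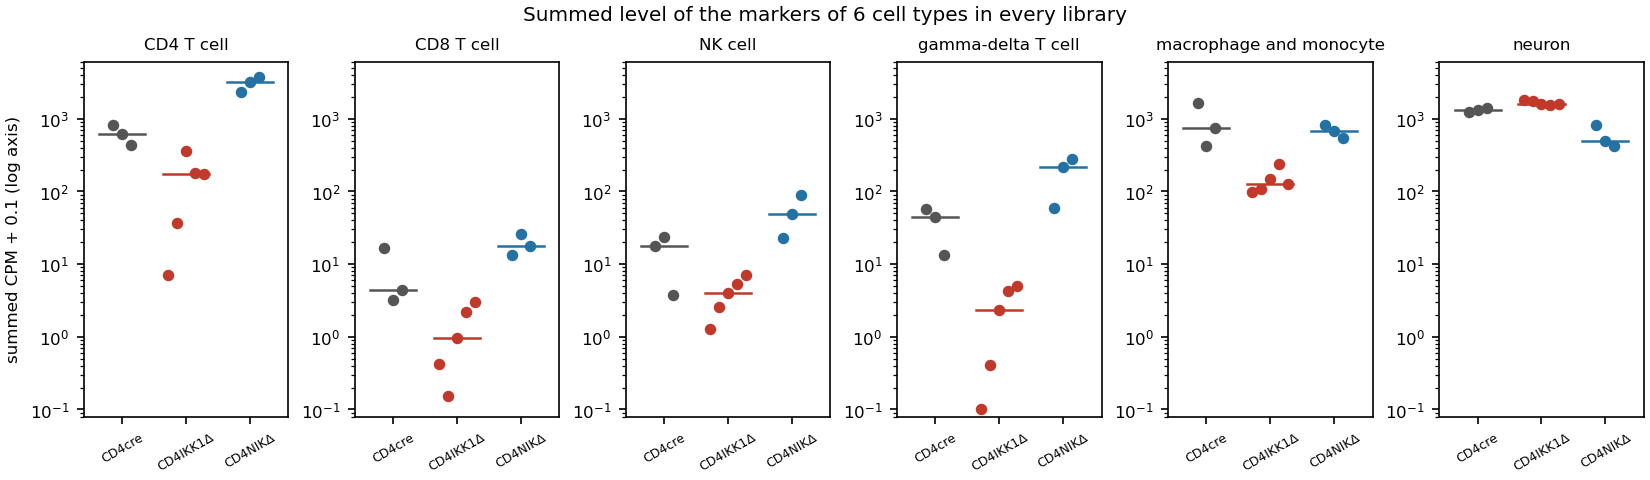
Summed CPM (plus 0.1, log axis) of marker genes of 6 cell types in every library, with points for libraries and bars for group medians in CD4cre (grey), CD4IKK1Δ (red) and CD4NIKΔ (blue). By group median, T cell and NK cell markers are highest in CD4NIKΔ and lowest in CD4IKK1Δ libraries, with CD4 T cell sums from 7.04 to 364 CPM in the latter. NK cell sums of CD4cre libraries overlap with both other groups, and their CD8 T cell sums overlap with CD4NIKΔ. Neuron markers are lowest in CD4NIKΔ libraries (422 to 834 CPM).

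In libraries labelled CD4NIKΔ, 7 of the 10 genes rose against CD4cre. These were the 3 granzymes, *Prf1*, *Nkg7* and both receptor genes. A gene was called when its FDR was under 0.05 and its change over 2-fold, which held for 10.4% of the 15209 genes tested in the upward direction. *Nkg7* had the smallest FDR (log2 fold change 3.10 ± 0.33, SE, with an FDR of 0.00253 by edgeR's quasi-likelihood test, adjusted after Benjamini and Hochberg), and *Gzma* the largest fold change (3.96, standard error 0.85, FDR 0.0197). *Gzmb* rose by 2.75 (standard error 0.52, FDR 0.0140) and *Gzmk* by 2.69 (standard error 0.81, FDR 0.0473) on the log2 scale. For *Prf1*, *Klrd1* and *Klrk1* the log2 fold changes were 1.85, 1.90 and 1.43, with FDRs of 0.0280, 0.0176 and 0.0461. *Eomes*, at 3.24 (standard error 1.21), did not pass in edgeR (FDR 0.0880), nor did *Cd8a* (1.10, FDR 0.482) or *Cd8b1* (1.25, FDR 0.246). All 10 fitted differences were positive, with a median of 2.30 against −0.02 over all genes tested, and 8 of the 10 did not overlap between the groups, compared with 22.9% of all genes tested in that direction.

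The calls in this comparison depended on single libraries and on how the T cell content was treated. Without CD4cre replicate 2, CD4cre replicate 3, CD4NIKΔ replicate 2 or CD4NIKΔ replicate 3, respectively 3, 3, 2 and 3 of the genes passed, and *Nkg7* and *Gzmb* were among them each time. Of all genes tested, 5.56%, 4.87%, 5.33% and 3.80% passed as higher in these fits. In a fit over all 11 libraries 1 gene passed (*Gzma*) beside 5.23% of all genes tested, and with the log of the receptor counts as a covariate none of the 10 and none of all genes passed (820 of all genes at an unadjusted p under 0.05). Receptor counts did not overlap between the groups (12558 to 35820 in CD4cre, 60124 to 111648 in CD4NIKΔ libraries). The covariate fit can therefore hardly tell a group difference from T cell content. In the same comparison the receptor genes themselves rose, *Trac* by 2.74, *Trbc1* by 2.14 and *Trbc2* by 2.00 on the log2 scale (FDR 0.00416, 0.0119 and 0.00849), and *Cd4* rose by 2.49 (FDR 0.00170, edgeR's quasi-likelihood test).

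In libraries labelled CD4IKK1Δ, none of the 10 genes passed the threshold against CD4cre, where 0.0% of the 15653 genes tested passed in either direction. *Eomes* was too low to be tested, and the other 9 genes had negative log2 fold changes, with a median of −2.24 against 0.02 over all genes tested and FDRs from 0.154 to 0.780. At an unadjusted p under 0.05 there were 2 of the 9 (and 2592 of all genes tested in either direction, with 1394 or 8.91% of those tested being lower), *Klrk1* at −2.77 on the log2 scale (standard error 0.82, FDR 0.154) and *Gzma* at −3.80 (standard error 1.28, FDR 0.185, edgeR's quasi-likelihood test). The same 2 genes were lower in every CD4IKK1Δ than in every CD4cre library, compared with 8.44% of all genes tested. DESeq2 called 547 genes in this comparison and of the set only *Klrk1*, with an adjusted p of 0.0168. The other fitted values were −2.50 for *Gzmb*, −0.71 for *Gzmk*, −2.18 for *Prf1*, −1.42 for *Nkg7*, −2.24 for *Klrd1*, −2.24 for *Cd8a* and −2.74 for *Cd8b1*, with standard errors between 0.91 and 1.56. The receptor genes were near the same size, with log2 fold changes of −2.14, −1.95 and −2.15 for *Trac*, *Trbc1* and *Trbc2* (FDR 0.498, 0.549 and 0.445). Without replicates 1 and 2 labelled CD4IKK1Δ, none of the genes passed either (0.239% of all genes tested were lower).

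The comparison between both knockouts, fitted over all 11 libraries, gave the widest differences. In libraries labelled CD4IKK1Δ, 9 of the 10 genes were lower than in libraries labelled CD4NIKΔ, where 18.5% of 16546 genes tested passed in that direction. *Gzma* had the largest log2 fold change (−7.74, standard error 1.15, FDR 0.000461), followed by *Gzmb* (−5.25, standard error 1.22, FDR 0.00688) and *Eomes* (−5.00, standard error 1.27, FDR 0.00722 by edgeR's quasi-likelihood test). The log2 fold changes were −4.54 for *Nkg7*, −4.21 for *Klrk1*, −4.15 for *Klrd1*, −4.04 for *Prf1*, −3.99 for *Cd8b1* and −3.41 for *Gzmk*, with FDRs between 0.00134 and 0.0252. *Cd8a* was the exception (−3.37, standard error 1.48, FDR 0.0855). The median of the 10 was −4.18 against 0.06 over all genes tested, and 9 genes did not overlap between the groups, compared with 24.4% of all genes tested in that direction. Without replicates 1 and 2 labelled CD4IKK1Δ 9 genes passed as well (17.1% of all genes tested), and leaving out any single library left between 7 and 10 (13.7% to 18.9% of all genes tested). With the receptor counts as a covariate none of the 10 passed, while 4.73% of all genes tested still passed as lower (1709 genes in both directions). Receptor counts did not overlap here either (at most 11413 in CD4IKK1Δ, at least 60124 in CD4NIKΔ libraries), so the covariate can take up a group difference. The receptor genes themselves were lower in the comparison without the covariate, *Trac* at −4.89, *Trbc1* at −4.11 and *Trbc2* at −4.17 (FDR 0.0112, 0.0235 and 0.0126). Both this comparison and that with CD4cre use the CD4IKK1Δ libraries, and both comparisons with CD4cre share their control libraries.

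**Figure D3:**
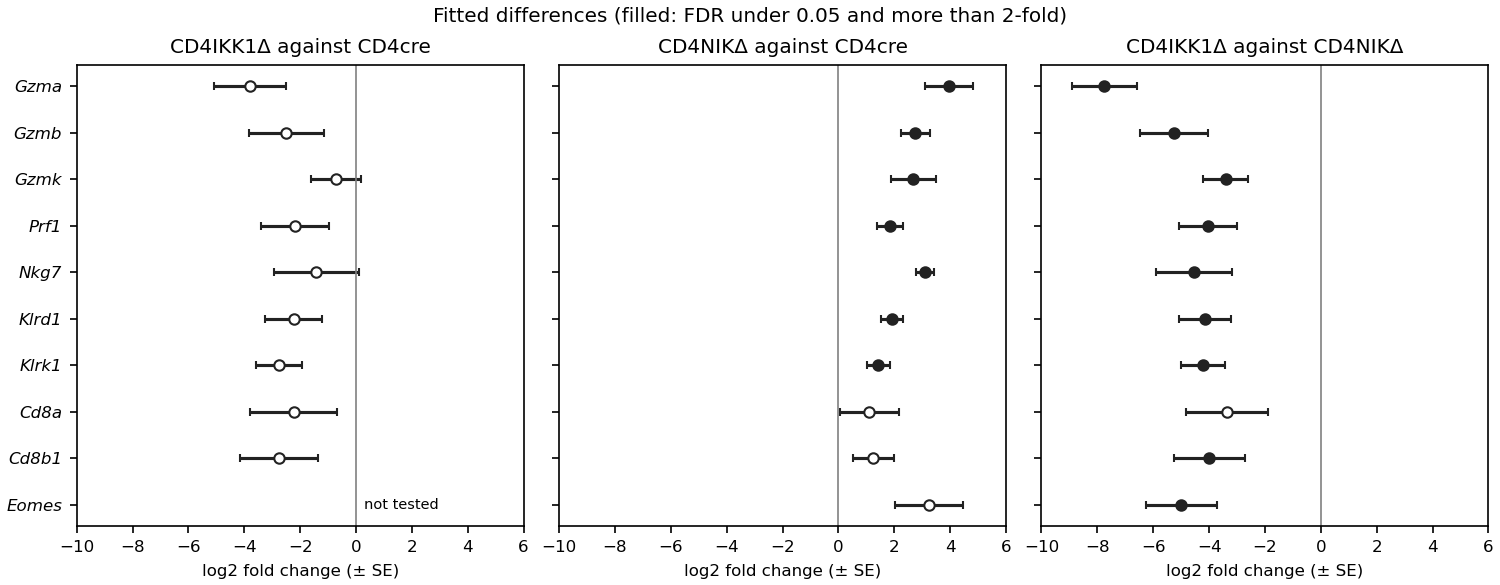
Log2 fold changes (points) with standard errors (bars) of the 10 genes in the 3 comparisons, filled for called genes (FDR under 0.05, over 2-fold). No point is filled for CD4IKK1Δ against CD4cre, 7 are filled for CD4NIKΔ against CD4cre and 9 for CD4IKK1Δ against CD4NIKΔ, and *Eomes* was not tested in the first.

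Relative to the receptor counts no difference between groups passed. None of the 30 exact permutation tests of these ratios (10 genes in 3 comparisons, two-sided) passed after adjustment (adjusted p = 1 in all), and a comparison of 3 against 3 libraries cannot go below p = 0.1, nor 5 against 3 below p = 0.0179. With 30 tests adjusted together, a single gene at these smallest p could not pass, so the outcome does not show that the ratios are alike. In CD4NIKΔ against CD4cre libraries 5 genes were higher and 5 lower per receptor count, with a median log2 difference of 0.16. *Klrk1* was the only gene whose groups did not overlap there, at 15.7 ± 5.60 per 1000 receptor counts in CD4cre (SD, n = 3) and 8.24 ± 1.13 in CD4NIKΔ libraries (SD, n = 3), a log2 difference of −0.87 (exact permutation p = 0.1). Any such separation of 3 against 3 libraries gives this p, and the share of all genes without overlap on this ratio was not computed. *Nkg7* was at 123 ± 64.3 and 200 ± 41.1 per 1000 (log2 difference 0.87, exact permutation p = 0.2), and *Gzmb* at 31.5 ± 14.1 and 53.7 ± 40.1 (0.62, exact permutation p = 0.4), the latter resting on the 100 per 1000 of replicate 1 labelled CD4NIKΔ beside 29.5 and 31.6 in the others. *Gzma* spread from 1.49 to 37.9 per 1000 within the CD4NIKΔ libraries alone. *Klrd1* overlapped between the groups, with 11.3, 11.8 and 8.36 per 1000 in CD4cre libraries and 13.0, 8.00 and 6.39 in libraries labelled CD4NIKΔ (log2 difference −0.25, exact permutation p = 0.6).

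In libraries labelled CD4IKK1Δ the ratios were poorly resolved, since 3 counts correspond to 73.2 per 1000 receptor counts in replicate 1 and to 3.46 per 1000 in replicate 2. Replicates 2 to 5 had 12.7, 3.42, 13.3 and 22.1 *Klrd1* counts and 226, 252, 119 and 26.4 *Nkg7* counts per 1000 receptor counts, which enclose the CD4cre values of 50.3 to 173 for *Nkg7*. *Gzmb* had 9.22, 28.8, 27.7 and 16.3 per 1000 in these libraries, against 28.6, 46.9 and 19.0 in CD4cre. Between CD4IKK1Δ and CD4cre no gene was free of overlap, the median log2 difference was −0.09, and the smallest exact permutation p was 0.196. Between CD4IKK1Δ and CD4NIKΔ, *Gzmb* was the only gene without overlap (log2 difference −1.39, exact permutation p = 0.0357, adjusted p = 1), and the median over the 10 genes was 0.30. The *Gzmb* ratios nearly met, at 28.8 per 1000 in CD4IKK1Δ replicate 3 and 29.5 in CD4NIKΔ replicate 2. CD4IKK1Δ replicate 1 had 0 *Gzmb* counts, and its floor of 73.2 per 1000 lies above both values. Without replicates 1 and 2 the median log2 difference was −0.66 against CD4cre, again with no gene free of overlap. Against CD4NIKΔ it was −0.74, with *Gzmb* and *Eomes* free of overlap, the latter on no more than 1 count in each remaining CD4IKK1Δ library. The share of all genes free of overlap on this ratio was not computed. In replicate 1 the 48 *Gzmk* counts lay above and the 28 *Klrk1* counts below the 41 receptor counts, and its ratios of 1171 and 683 per 1000 were the highest of all libraries for these genes. Without replicates 1 and 2 the log2 difference of *Klrk1* against CD4cre changed from 0.04 to −1.25, and that of *Eomes* from 2.64 to −0.17.

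**Figure D4:**
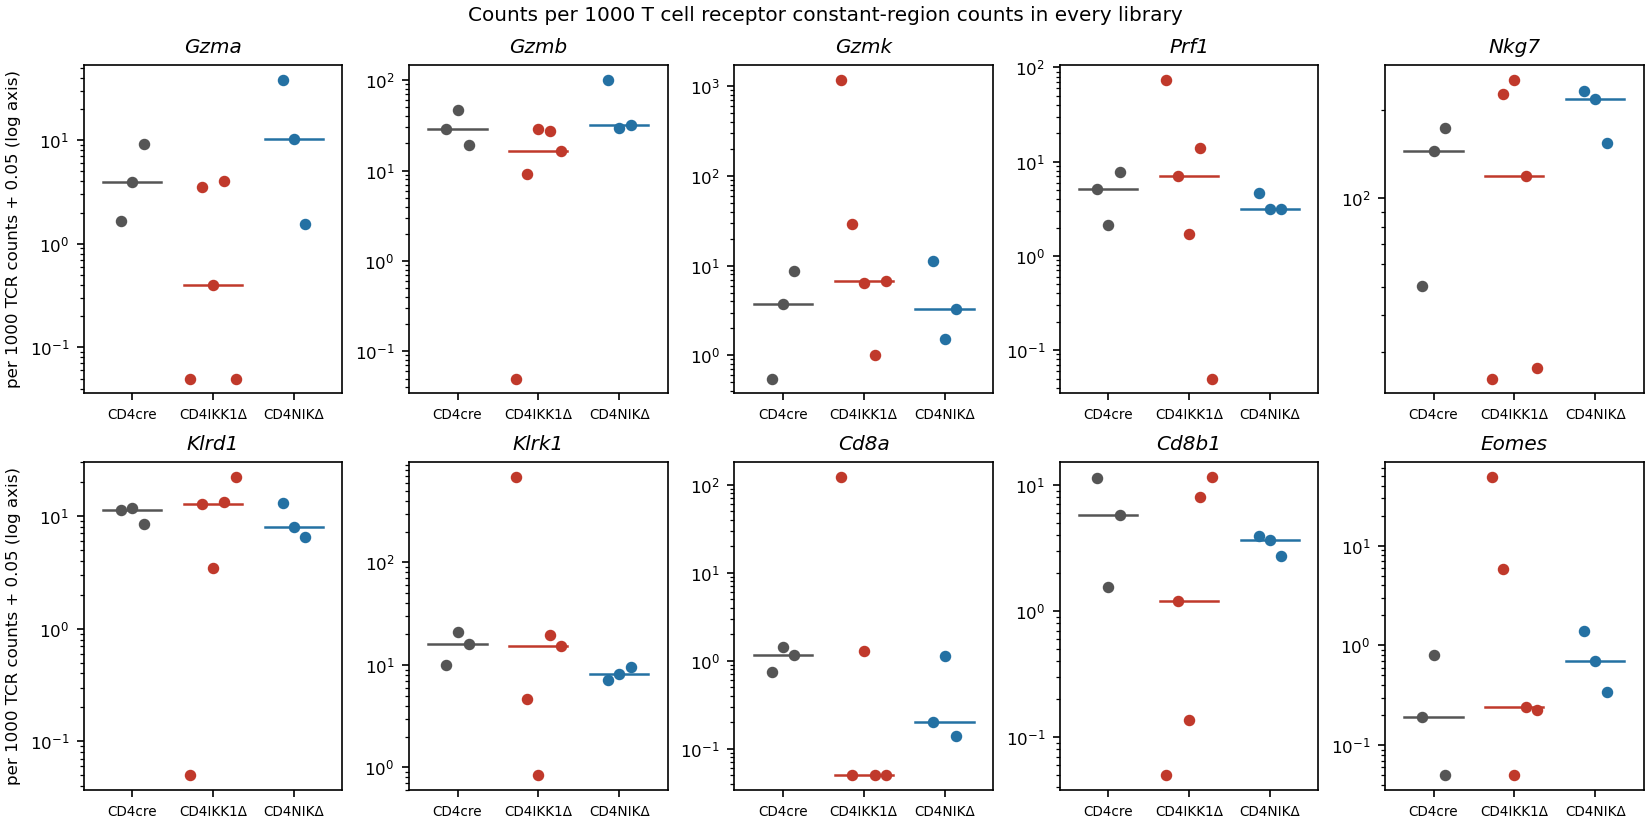
Counts of each gene per 1000 T cell receptor constant-region counts (plus 0.05, log axis, each panel with its own scale) in every library, with points for libraries and bars for group medians in CD4cre (grey), CD4IKK1Δ (red) and CD4NIKΔ (blue). The groups overlap for most genes, and replicate 1 labelled CD4IKK1Δ, with 41 receptor counts, reaches 1171 for *Gzmk*, 683 for *Klrk1* and 122 for *Cd8a*.

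The other genes of the cytotoxic program were read from 5 lists, for which the threshold was the same. Of 21 further genes of granules and killing, 16 were tested for CD4NIKΔ against CD4cre and 9 rose (10.4% of all genes tested did), with a list median of 1.93. *Hopx* rose from 107 ± 11.1 to 468 ± 97.4 CPM (log2 fold change 2.11, FDR 0.00230), *Stxbp2*, which encodes the fusion protein Munc18-2 of granule release, from 50.3 ± 11.2 to 154 ± 20.7 CPM (1.60, FDR 0.00487) and *Ctsw*, a cathepsin of cytotoxic lymphocytes, from 103 ± 67.8 to 943 ± 283 CPM (3.18, FDR 0.00632, SD, n = 3 for each group). *Gzmc* rose as well (FDR 0.00484), to 20.4 ± 4.79 CPM from 0.102 ± 0.178 CPM, but reads of the *Gzmc* family can be split among near-identical copies. Among libraries labelled CD4IKK1Δ *Gzmc* was at 0 in 3 of 5 and reached 23.6 CPM (417 counts) in 1, within the 16.2 to 25.6 CPM of the CD4NIKΔ libraries. Against CD4cre, none of 13 tested genes of the list passed in CD4IKK1Δ libraries (0.0% of all genes did), with a median of −1.94, or −1.31 without replicates 1 and 2 labelled CD4IKK1Δ. The 3 with the smallest p were *Serpinb6b* (log2 fold change −5.31, FDR 0.0551), *Stxbp2* (−1.11, FDR 0.0898) and *Lyst* (−0.94, FDR 0.108 in edgeR's quasi-likelihood test). *Serpinb6b* passed there without replicates 1 and 2 labelled CD4IKK1Δ (−5.04, FDR 0.0478), as did 0.239% of all genes in that direction. Between CD4IKK1Δ and CD4NIKΔ 14 of 16 were lower (18.5% of all genes tested), or 12 of 16 without these replicates (17.1% of all genes). With all libraries the smallest FDRs were those of *Hopx* (−2.67), *Stxbp2* (−2.72), *Serpinb6b* (−6.47), a serpin gene, and *Unc13d* (−2.99), which encodes the priming factor of granules.

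Of 32 further NK receptors and adaptors, 8 of 20 tested rose in CD4NIKΔ against CD4cre libraries (10.4% of all genes tested), none of 15 tested passed in CD4IKK1Δ against CD4cre (0.0% of all), and 13 of 20 were lower in CD4IKK1Δ than in CD4NIKΔ libraries (18.5% of all). With replicates 1 and 2 labelled CD4IKK1Δ left out, 1 of 14 (*Il2rb*) was lower against CD4cre (0.239% of all genes) and 9 of 20 against CD4NIKΔ (17.1% of all), with medians of −1.33 and −3.25. With all libraries the medians were 2.35, −1.91 and −3.87 on the log2 scale (−3.61 in the last with 1 gene set to its floor). *Cd226*, which encodes the activating receptor DNAM-1, rose from 16.1 ± 3.51 to 148 ± 18.3 CPM in CD4NIKΔ libraries (log2 fold change 3.19, FDR 0.00150), and *Cd160* from 5.83 ± 0.957 to 54.6 ± 6.95 CPM (3.21, FDR 0.00160). *Slamf7* rose from 10.7 ± 2.49 to 65.7 ± 12.3 CPM (2.59, FDR 0.00255). *Klrg1*, a receptor of terminally differentiated effector cells, was at or under 3 counts in all 3 CD4cre libraries and at 35.6 ± 16.1 CPM in CD4NIKΔ libraries (SD, n = 3), which is at least 250-fold higher against a floor of 3 counts per library. In CD4IKK1Δ against CD4cre libraries the smallest p were those of *Fcgr3* (−2.61, FDR 0.0691), *Tyrobp* (−1.91, FDR 0.107) and *Cd226* (−1.91, FDR 0.181). *Fcgr3* and *Tyrobp* are also expressed by macrophages, whose 8 markers summed to 425 to 1660 CPM in CD4cre and 98.7 to 238 CPM in CD4IKK1Δ libraries. Of 7 tested macrophage markers 6 had negative and 1 a positive fitted difference in this comparison, and none passed. *Cd68* was at 14.4 to 18.1 CPM in CD4cre and 16.2 to 25.1 CPM in CD4IKK1Δ libraries. The part of macrophages in the differences of *Fcgr3* and *Tyrobp* was not tested. Against CD4NIKΔ, *Slamf7* (−4.27), *Cd226* (−5.11), *Klre1* (−4.81) and *Il2rb* (−4.23), the IL-2 receptor β chain, had the smallest FDRs of the list among the lower genes in CD4IKK1Δ libraries.

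Of 10 transcription factors of cytotoxic cells, 3 rose in CD4NIKΔ against CD4cre libraries (10.4% of all genes tested), with a list median of 1.44. *Tbx21*, which encodes T-bet, rose from 37.4 ± 12.2 to 196 ± 49.0 CPM (log2 fold change 2.37, FDR 0.00401), *Id2* from 709 ± 132 to 1978 ± 370 CPM (1.47, FDR 0.00716) and *Stat4*, the transducer of IL-12 signals, from 31.5 ± 18.9 to 198 ± 37.5 CPM (2.64, FDR 0.00752, SD, n = 3 for each group). None of 9 tested passed in CD4IKK1Δ against CD4cre libraries (median −2.01, 0.0% of all genes passing), with *Id2* at −0.79 (FDR 0.0668), *Nfil3* at −2.01 (FDR 0.159) and *Tbx21* at −2.28 (FDR 0.178). Between CD4IKK1Δ and CD4NIKΔ 8 were lower (18.5% of all genes tested), among them *Id2* (−2.27) and *Tbx21* (−4.67), and 1 was higher (14.8% of all), *Zeb2* (1.07, FDR 0.00142), which is also widely expressed outside lymphocytes. Without replicates 1 and 2 labelled CD4IKK1Δ none passed against CD4cre (median −1.42, 0.239% of all genes were lower), 9 were lower than in CD4NIKΔ libraries (17.1% of all), and *Zeb2* no longer changed by over 2-fold (0.87). *Zfp683* (Hobit) was at or under 3 counts in all 5 libraries labelled CD4IKK1Δ and at least 171-fold higher in CD4NIKΔ libraries (27.9 ± 21.8 CPM, SD, n = 3, from 4.86 to 48.1 CPM), or at least 109-fold without the highest of these, replicate 2.

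Of 5 chemokines and cytokines of cytotoxic cells, 2 rose in CD4NIKΔ against CD4cre libraries (10.4% of all genes tested). *Ccl5* rose from 63.7 ± 15.0 to 272 ± 60.5 CPM (log2 fold change 2.08, FDR 0.00329), and *Ifng*, which is also the cytokine of Th1 cells, from 203 ± 140 to 905 ± 152 CPM (2.15, FDR 0.0165). None of the 5 passed in CD4IKK1Δ against CD4cre libraries (0.0% of all genes did), with *Ccl4* at −2.19 (FDR 0.295), *Ccl3* at −3.51 (FDR 0.312) and *Ifng* at −3.04 (FDR 0.347 in edgeR's quasi-likelihood test). *Ifng* (−5.20), *Ccl4* (−2.76), *Xcl1* (−3.91) and *Ccl5* (−3.09) were lower in CD4IKK1Δ than in CD4NIKΔ libraries (4 of 5, against 18.5% of all genes). After leaving out replicates 1 and 2 labelled CD4IKK1Δ none passed against CD4cre (0.239% of all genes were lower) and all 5 were lower than in CD4NIKΔ libraries (17.1% of all). Of the ligands of NKG2D and CD94, 6 of 10 had a row and 4 were tested, of which 1 rose in CD4NIKΔ against CD4cre libraries (10.4% of all genes), none passed in CD4IKK1Δ against CD4cre (0.0%) and 2 were lower in CD4IKK1Δ than in CD4NIKΔ libraries (18.5%), with the same counts when replicates 1 and 2 labelled CD4IKK1Δ were left out. *H2-T23*, which encodes Qa-1, the ligand of CD94 with NKG2A, rose from 233 ± 36.5 to 878 ± 168 CPM in CD4NIKΔ libraries (1.90, FDR 0.00276) and was lower in CD4IKK1Δ than in CD4NIKΔ libraries (−3.62, FDR 0.000640). *Ulbp1*, a ligand of NKG2D, was at or under 3 counts in all 5 libraries labelled CD4IKK1Δ, and was at least 31.4-fold higher in CD4NIKΔ libraries (FDR 0.000323 for the difference, edgeR's quasi-likelihood test), or at least 19.4-fold without replicate 3 labelled CD4NIKΔ. Against CD4cre, where it was at least 12.9-fold lower (6.02-fold without CD4cre replicate 1), the difference did not pass (FDR 0.0903).

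Across the 11 libraries the genes followed the T cell content to different degrees. The Pearson r of log2 CPM with *Trac* was 0.97 for *Klrd1*, 0.96 for *Gzmb* and 0.95 for *Nkg7*, but 0.43 for *Gzmk*, 0.47 for *Cd8a* and 0.54 for *Eomes*, as a description of libraries that differ in T cell content. Over 9 libraries, without replicates 1 and 2 labelled CD4IKK1Δ, these values were 0.94, 0.94 and 0.87, and 0.76, 0.63 and 0.90 respectively. Among the 45 pairs of the 10 genes r ran from 0.33 to 0.96, with a median of 0.66. Of 16546 genes, those most like a member were *Ccr2* and *Rexo5* for *Gzmb* (r = 0.99 for both), *Jak3* and *Ahnak* for *Nkg7* (0.99 for both), *Cd28* and *Dock8* for *Klrd1* (0.99 for both) and *Ly9* and *Arhgef18* for *Cd8b1* (0.99 for both). *Klrk1* was nearest to *Klhdc4* and *Malt1* (0.98 for both), *Gzma* to *Sart1* and *Asb6* (0.97 and 0.96), *Prf1* to *Snrk* and *Adprs* (0.96 for both) and *Eomes* to *Xlr4a* and *Gm5541* (0.96 for both). *Gzmk*, with *Far1* and *Tmod3* (0.93 for both), and *Cd8a*, with *Psd4* and *Lsm2* (0.93 for both), had the least close neighbours.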

How the data were processed

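RNA of sorted renal CD4+ T cells from 3 CD4cre, 5 CD4IKK1Δ and 3 CD4NIKΔ mice (day 2) was sequenced, and libraries were grouped by the sample labels, which name no batch. Reads were trimmed with Trimmomatic and assigned with kallisto, and the authors deposited estimated counts per gene symbol without normalization. The study's methods name GRCm39 and the processing notes mm10, and the kallisto version is not given in the sources used here. kallisto divides shared reads among transcripts, and between 35.3% and 41.8% of values per library were fractional. Of the symbols, 33508 of 35814 were found in GENCODE release M39, which gave coordinates and transcript lengths.

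Estimated counts were rounded, filtered by edgeR's expression filter, normalized by TMM (factors 0.8995 to 1.0493) and tested across all genes by the robust quasi-likelihood test of edgeR with Benjamini-Hochberg adjustment (edgeR 4.0.16, R 4.3.3), each comparison with CD4cre on its own libraries and the knockouts against each other on all 11. Genes were called at an FDR under 0.05 together with a change over 2-fold. Standard errors were taken from the F statistic. Ratios to receptor counts were compared as log2 after adding 0.5 to both counts, by exact two-sided permutation (scipy 1.17.1), adjusted over 30 tests. Likeness used log2 CPM with a prior count of 2. The tests were checked on simulated data. No libraries held identical values. Alternatives were DESeq2 1.42.0, other normalization factors and filters, all 11 libraries in the fit, the replicate number as a block, receptor counts as a covariate, other denominators and pseudocounts, and leaving out libraries, which for the further lists, the bounds on folds, the ratio medians and the correlations with *Trac* was chosen after seeing the data. The genes, the further lists and the rule for the genes named (all members, the targeted and marker genes, up to 4 called or 3 uncalled genes per list by smallest FDR or p, and the 2 genes most like each member) were chosen with earlier results of these data known. Paralogous and overlapping genes such as the *Gzm* and *Klra* families are uncertain, because reads can be split among them.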

Additional observations from a re-analysis of the deposited data

Results flagged for a closer look

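Within the 5 libraries labelled CD4IKK1Δ, the highest or lowest library of each gene was compared with its nearest neighbour by Dixon's test, on CPM and on the ratio to receptor counts. Of 20 such sets of values 7 had a library set apart. The chance rate of about 1 in 20 holds for independent and normally distributed values. These values were not log-transformed, and the ratios of a library share its receptor counts, so the 7 cannot be set against that rate. On CPM, *Gzma* was highest in replicate 4 (1.04 CPM, next 0.226 CPM) and *Nkg7* in replicate 3 (162 CPM, next 31.3 CPM), the latter being the replicate with the most receptor counts of the group. Per 1000 receptor counts, replicate 1 was highest for *Gzmk* (1171, next 28.8), *Prf1* (73.2, next 13.8), *Klrk1* (683, next 19.3), *Cd8a* (122, next 1.23) and *Eomes* (48.8, next 5.76). This library had 41 receptor counts, so that 3 counts correspond to 73.2 per 1000 and only *Gzmk*, *Klrk1* and *Cd8a* lie above that limit.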

How the results depend on the processing

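For CD4IKK1Δ against CD4cre, no gene of the set passed under any alternative but DESeq2, which called 1. All genes called there numbered 1 with RLE factors, 48 with a filter of 1 count in any library, 547 with DESeq2, 129 with all 11 libraries in the fit, 36 without replicates 1 and 2 labelled CD4IKK1Δ and 0 to 23 when single libraries were left out. For CD4NIKΔ against CD4cre, 7 genes of the set became 1 with all 11 libraries in the fit, 0 with the receptor covariate and 2 to 6 without single libraries, while all genes called became 0 with the covariate and 674 to 3468 without single libraries. The split of higher and lower calls moved from 1586 and 1063 to 1382 and 1438 with library size alone and to 865 and 1264 with all 11 libraries. Library size alone moved the median of all genes to −0.15 there and to 0.16 for CD4IKK1Δ against CD4NIKΔ. In the latter the covariate left 0 of the set and 1709 genes, and without single libraries 7 to 10 of the set and 4116 to 5556 genes passed.

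Libraries with the same replicate number did not deviate together more than others (9 pairs, r from −0.089 to 0.077, against −0.066 to 0.091 in 30 other pairs). These values show no pairing by number, but cannot tell whether such libraries were handled together. With the replicate number as a block, 3 genes passed against CD4cre for CD4IKK1Δ (none of the set), and for CD4NIKΔ 1185 (995 higher and 190 lower) with 3 of the set. For CD4IKK1Δ against CD4NIKΔ, 7 of the set and 4994 genes (16.9% lower) passed in the fit with the block.

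With the receptor covariate the sign turned for *Gzmb* (0.40), *Nkg7* (0.42), *Klrd1* (0.34) and *Cd8b1* (0.36) in CD4IKK1Δ against CD4cre, for *Klrk1* (−0.83), *Cd8a* (−2.15) and *Cd8b1* (−1.18) in CD4NIKΔ against CD4cre, and for *Cd8b1* (1.15) in CD4IKK1Δ against CD4NIKΔ. Receptor counts did not overlap between any of the groups, so covariate and group are confounded in each of these fits. Without single libraries *Cd8a* ran from −0.97 to 1.61 in CD4NIKΔ against CD4cre, negative without replicate 2 labelled CD4NIKΔ.

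Of the ratios to receptor counts, no gene's groups were free of overlap downwards in CD4NIKΔ against CD4cre with *Cd4* as denominator (0), and 2 were in CD4IKK1Δ against CD4NIKΔ without CD4IKK1Δ replicates 1 and 2. Without single libraries the counts free of overlap were 0 to 1 upwards for CD4IKK1Δ against CD4cre, 0 to 2 upwards and 1 to 3 downwards for CD4NIKΔ against CD4cre. The shares of all genes free of overlap on these ratios were not computed. Signs turned for CD4IKK1Δ against CD4cre with CD3 genes as denominator (*Klrd1* −0.30, *Klrk1* −0.34), with *Cd4* (*Klrd1* −1.23, *Klrk1* −1.28), with a pseudocount of 1 (*Prf1* 0.20, *Cd8a* 0.48) and without replicates 1 and 2 (*Klrd1* −0.040, *Klrk1* −1.25, *Eomes* −0.17). For CD4IKK1Δ against CD4NIKΔ they turned with CD3 genes (*Prf1* −0.13, *Klrd1* −0.044), with *Cd4* (*Prf1* −0.85, *Klrd1* −0.76, *Klrk1* −0.19, *Eomes* −0.39), with a pseudocount of 1 (*Cd8b1* 0.21) and without replicates 1 and 2 (*Gzmk* −0.091, *Prf1* −1.46, *Klrk1* −0.38, *Cd8a* −0.20, *Eomes* −2.10). Without single libraries the ratios ran, for CD4IKK1Δ against CD4cre, from −1.14 to 1.34 for *Prf1*, −0.79 to 0.21 for *Nkg7*, −0.16 to 0.51 for *Klrd1*, −1.32 to 1.10 for *Klrk1*, −1.90 to 0.74 for *Cd8a* and −1.42 to 0.52 for *Cd8b1*. For CD4NIKΔ against CD4cre they ran from −0.59 to 1.45 for *Gzmk*, −0.85 to 0.11 for *Prf1* and −1.26 to 0.19 for *Cd8b1*, and for CD4IKK1Δ against CD4NIKΔ from −0.83 to 1.65 for *Prf1*, −0.45 to 1.97 for *Klrk1*, −0.65 to 0.98 for *Cd8b1* and −0.74 to 1.86 for *Eomes*. The cause of these changes was not tested. Low counts limit *Eomes* and *Cd8a*, and the 41 and 868 receptor counts limit all ratios of CD4IKK1Δ replicates 1 and 2.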

Other observations

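The balance between members within a library varied more than the group means show. *Gzmb* had 56.8, 32.4 and 11.0 counts per 100 *Nkg7* counts in CD4cre libraries and 43.3, 13.6 and 20.6 in libraries labelled CD4NIKΔ. *Gzma* had 5.66, 8.26 and 48.5 counts per 100 *Gzmb* counts in CD4cre libraries and 37.9, 34.6 and 4.73 in libraries labelled CD4NIKΔ. *Klrd1* had 114, 55.9 and 52.0 counts per 100 *Klrk1* counts in CD4cre libraries and 181, 97.9 and 68.0 in libraries labelled CD4NIKΔ. Each of these ranges overlapped between the groups. In libraries labelled CD4IKK1Δ with more than 1000 receptor counts (replicates 3, 4 and 5), *Gzmb* had 11.5, 23.2 and 61.7 counts per 100 *Nkg7* counts and *Klrd1* had 433, 68.6 and 145 per 100 *Klrk1* counts, the first of these on 9 *Klrk1* counts. The differences between groups in these ratios were not tested.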
